A study of Mus musculus with 6 samples.

Results

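Interferon-stimulated antiviral effector genes were examined as a group of 40 genes among the 56941 genes counted by RNA sequencing (RNA-seq) in activated mouse CD8+ T cells. Members were selected on their names and on their known response to interferon (the IFIT, OAS, MX, PARP, IFI and related families), by a list drawn up with the S1P-against-vehicle values of these samples in view. Their differences between the groups are therefore given as a description, without p-values, and they support nothing by themselves. The genes were sorted into 10 subfamilies by what their proteins do. The labels give the source of all samples as naive CD8+ T cells of B6 mouse spleen, stimulated on plates through CD3 and CD28, with recombinant IL-2 in the medium, and kept in culture for 3 days. At 24 h, one group received S1P at 5 µM and the other received vehicle only, with 3 samples in each. The comparison addresses how S1P alters the transcriptome of activated CD8+ T cells. S1P is sphingosine-1-phosphate, a bioactive lipid that T cells sense through S1P receptors such as S1PR1. The age and sex of the mice are not given in the labels. The labels call the samples biological replicates and do not say whether each came from its own animal. The errors below therefore refer to these samples only.

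Total counts ranged from 13636095 to 17089831 in the vehicle samples and from 12048880 to 17384084 in the S1P samples. Levels are given in CPM, the usual unit in which each gene's count is divided by the size of its library, after TMM factors had corrected that size for differences in composition. Changes are log2 fold changes of S1P against vehicle from edgeR's quasi-likelihood fit, each written ± its standard error (SE). The fit covered the 13299 genes that passed the filter on low counts. The SE is the size of the log2 fold change divided by the square root of the F value of the test. It therefore uses variability that the fit shares in part across genes, and is not the plain spread of a gene's own values. A gene was called when its adjusted p was at most 0.05 and its log2 fold change at least 0.3 in size. S1P replicate 2 stood apart, with 7.80% of its counts on mitochondrial genes against 4.10% to 4.93% in the other 5 samples. Markers of other lymphocytes were present in every library although the label names CD8+ T cells only. The CD4 T cell marker Cd4 was at 46.9 CPM per kb of exon over all samples, beside 49.7 CPM per kb for Cd8a, and the 8 B cell markers summed to between 631 and 791 CPM in the vehicle samples and between 646 and 739.8 CPM in the S1P samples. The levels below therefore belong to the cultures as sequenced, in which fewer cells of a type and less RNA per cell cannot be told apart.

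Type I and type III interferons act through their receptors and the kinases Jak1 and Tyk2 to form the transcription factor ISGF3, which holds Stat2 and Irf9 and binds a DNA element called the interferon-stimulated response element (ISRE). Interferon gamma acts through Jak1 and Jak2, and its target genes carry the gamma-activated sequence (GAS). The genes turned on in this way encode proteins that block entry of a virus, degrade or seal off its RNA, starve it of nucleotides or tag its proteins. T cells, like most other cells, carry this programme and can run parts of it at a low level without infection.

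The promoters of the members were read first, as a description of their sequences. Members were selected in part on their known response to interferon, so a share of the ISRE above that of all genes may follow from that selection. In the 250 bases before the start of the canonical transcript (GENCODE vM39, GRCm39 build), the ISRE core, spelled GAAANNGAAA and searched on both strands with overlapping matches allowed, was present in 17 of 40 members (42.5%). The same letters were present in 352 of 11273 tested protein-coding genes (3.12%). The GAS, spelled TTCNNNGAA, which is its own reverse complement, was present in 3 of 40 members (7.5%) and in 6.75% of tested protein-coding genes. Members with and without a match lay on both sides of the call thresholds. Of the 31 members called higher, 13 held the ISRE core (41.9%), and so did 4 of the 8 tested members that were not called higher, which were Ifit3b, Ifit1bl1, Oas1b and Bst2. The other 18 members called higher, Mx1, Mx2, Ifi44, Cmpk2, Oasl1, Oasl2 and Samd9l among them, had no match of these letters in this window. A match is a description of the sequence and no match says only that these letters were not in this window.

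The sequences below show the stretch around the matches, 5′ to 3′ on the strand of the gene, with the matched bases in capitals and up to 25 bases on each side. Rsad2, Isg15, Ifit1 and Ifi204 are shown because they were the members with a match among the 6 with the largest changes.
Rsad2, chr12:26506537-26506596, minus strand: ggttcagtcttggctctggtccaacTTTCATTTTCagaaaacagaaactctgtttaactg
Isg15, chr4:156285307-156285378, minus strand: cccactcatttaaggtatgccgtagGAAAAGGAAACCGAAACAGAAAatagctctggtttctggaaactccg
Ifit1, chr19:34618160-34618238, plus strand: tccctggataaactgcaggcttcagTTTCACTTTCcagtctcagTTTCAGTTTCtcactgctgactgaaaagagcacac
Ifi204, chr1:173594612-173594671, minus strand: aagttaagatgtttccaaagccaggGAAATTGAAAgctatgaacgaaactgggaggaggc
Isg15 carried 3 overlapping matches that lay between 50 and 38 bases before the start, counted at the first base of each match. In Rsad2 the match lay 120 bases before the start.

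Ifit3 and Ifit3b are shown because they are partly identical copies, and Ifit1bl1 and Bst2 because they carried the motif and were not called.
Ifit3, chr19:34560748-34560841, plus strand: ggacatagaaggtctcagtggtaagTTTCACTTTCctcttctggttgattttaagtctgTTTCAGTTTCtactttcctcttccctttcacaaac
Ifit3b, chr19:34585144-34585237, plus strand: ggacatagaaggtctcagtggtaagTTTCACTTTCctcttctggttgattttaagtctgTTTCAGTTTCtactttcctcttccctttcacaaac
Ifit1bl1, chr19:34579438-34579497, minus strand: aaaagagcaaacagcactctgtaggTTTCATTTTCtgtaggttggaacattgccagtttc
Bst2, chr8:71990206-71990271, minus strand: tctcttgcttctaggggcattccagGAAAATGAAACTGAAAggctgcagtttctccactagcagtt
The stretches of Ifit3 and Ifit3b were identical in 94 of 94 bases, and the longest run that their windows of 250 bases shared was 182 bases. Their transcripts were also alike, since 39.4% of the 31-base words in the exons of Ifit3 and 58.0% of those of Ifit3b occurred in another gene, almost all in the other copy. Counts of these 2 genes are uncertain for this reason.

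In S1P-treated cells, 31 of the 39 tested members were called higher and 1, Ly6e, was called lower. Over all 13299 tested genes, 12.7% were called higher, 10.4% lower and 23.1% in either direction. The members were chosen with these values known, so nothing is read from that contrast. The median log2 fold change of the tested members was 1.05, beside 0.01 over all tested genes, and 37 of the 39 had a positive fold change. For 33 of 39 members the 3 values of one group lay wholly above or below those of the other, higher with S1P for 32 and lower for 1, beside 45.6% of all tested genes with groups that did not overlap. A log2 fold change of at least 1 was found for 20 members and one of at least 2 for 6, namely Rsad2, Ifi44, Mx2, Isg15, Ifit1 and Ifi204. Ifitm3 was not tested, because its counts of 19, 8 and 4 in the vehicle samples and 25, 6 and 5 in the S1P samples were too low for the filter.

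**Figure D1:**
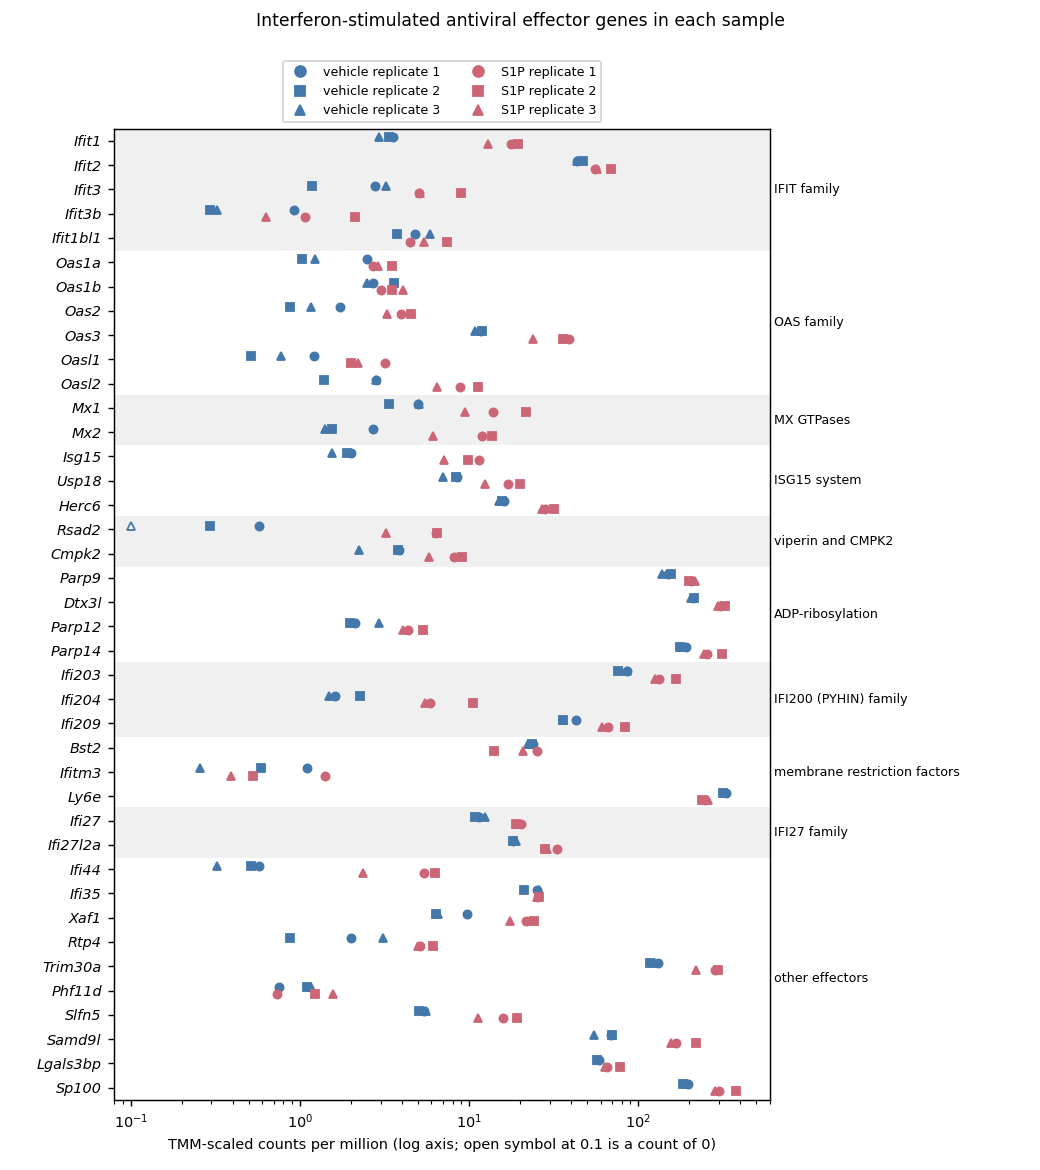
Level of each of the 40 members in each of the 6 samples, as TMM-scaled CPM on a log axis, with vehicle samples in blue, S1P samples in red and 1 symbol shape per replicate number. The S1P samples lie to the right of all vehicle samples for 32 tested members, and to the left of them for Ly6e.

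The IFIT family binds foreign RNA through its ends and keeps it from being translated. Positions of genes here and below are those of the GENCODE vM39 annotation on GRCm39. The 5 members of the family lie in one cluster on chromosome 19, and 3 of them were called higher, with a median log2 fold change of 1.20. This median is the value of Ifit3b, a rare member that was not called, and it was 0.71 without S1P replicate 2. Ifit1 (chr19:34618271-34632174), which recognizes RNA caps that lack host methylation, moved most. It was at 3.57, 3.37 and 2.96 CPM in the vehicle samples and at 17.8, 19.4 and 12.9 CPM in the S1P samples, a log2 fold change of 2.33 ± 0.18. Every S1P sample was above 3 times the highest vehicle sample. Ifit2 (chr19:34527932-34554524), which restricts several RNA viruses in mice, had the highest level of the family per length, 8.93 CPM per kb. It was at 43.6, 47.3 and 43.5 CPM without S1P and at 55.9, 69.1 and 56.9 CPM with it, and the log2 fold change was 0.43 ± 0.09. The groups did not overlap, and the gap between them was small beside that of Ifit1. Ifit3 changed by 1.37 ± 0.32. Its copy Ifit3b had a log2 fold change of 1.20 ± 0.52 and was not called, at between 0.293 and 2.11 CPM in all samples. It was called without vehicle replicate 1, at 1.97, and without a filter on low counts, at 1.17, and over the 13 alternative analyses that gave a value its log2 fold change lay between 0.71, without S1P replicate 2, and 1.97. Ifit1bl1, an Ifit1-like gene of unclear role, had a log2 fold change of 0.24 ± 0.22 and overlapping groups. Single libraries moved it, to 0.03 and 0.40 without S1P replicate 2 and 1 and to 0.09 and 0.40 without vehicle replicate 2 and 3. Of the 31-base words in the exons of Ifit1bl1, 19.3% occurred in other genes.

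On sensing double-stranded RNA, the OAS family makes oligoadenylates, which are signals of the antiviral response. Of its 6 members, 5 were called higher, and the median log2 fold change was 1.54. Oasl2 (chr5:115034997-115050295), an OAS-like enzyme, had the largest change. Its level was 2.83, 1.39 and 2.83 CPM in the vehicle samples and 8.83, 11.3 and 6.44 CPM in the S1P samples (log2 fold change 1.88 ± 0.26). The lowest S1P sample was more than 2 times the highest vehicle sample. Oas3 (chr5:120891163-120915729), the long form of the enzyme with several catalytic-type domains, had the highest level per length at 3.14 CPM per kb. Its values were 11.8, 11.96 and 10.8 CPM and 38.9, 35.8 and 23.9 CPM, a log2 fold change of 1.52 ± 0.16. Vehicle samples were tightly grouped, and S1P replicate 3 was the lowest of the treated samples. Oas2 and Oasl1, the latter known as a repressor of Irf7 translation, changed by 1.61 ± 0.27 and 1.56 ± 0.33. Oas1a changed by 0.90 ± 0.31, and its call was lost in 6 of 14 alternative analyses, 5 of which left out 1 library each, with values from 0.68 to 0.98 in those 6. Without vehicle replicate 1 it was 1.41 and called. Of the 31-base words in the exons of Oas1a, 22.8% occurred in other genes. Oas1b is known to encode a truncated protein in most inbred laboratory strains. It was at 2.71, 3.59 and 2.51 CPM and 3.04, 3.51 and 4.08 CPM, the groups overlapped, and it was not called, at 0.27 ± 0.22. It was 0.42 and 0.17 without vehicle replicate 2 and 3, and 0.15 without S1P replicate 3.

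The MX proteins are dynamin-like GTPases that trap viral nucleocapsids, and B6 mice are known to carry a defective Mx1 gene. Both members were called higher, with a median log2 fold change of 2.09. Mx2 (chr16:97336508-97362100) was at 2.71, 1.54 and 1.41 CPM in the vehicle samples and at 11.99, 13.7 and 6.12 CPM in the S1P samples (log2 fold change 2.46 ± 0.32). Mx1 (chr16:97248235-97264107) had the higher level per length, 2.89 CPM per kb, and went from 5.02, 3.37 and 5.08 CPM to 13.9, 21.7 and 9.42 CPM (log2 fold change 1.71 ± 0.27). In both genes S1P replicate 2 was the highest sample and S1P replicate 3 the lowest of the treated ones, and no S1P sample fell into the vehicle range.

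The ISG15 system attaches a ubiquitin-like protein to new proteins and takes it off again. All 3 members were called higher, with a median log2 fold change of 1.05. Isg15 (chr4:156283883-156285303), the modifier itself, had both the largest change and, with 7.25 CPM per kb, the highest level per length. It was at 2.02, 1.91 and 1.54 CPM without S1P and at 11.5, 9.92 and 7.14 CPM with S1P, a log2 fold change of 2.39 ± 0.22. The lowest S1P sample was more than 3 times the highest vehicle sample. A predicted gene on the opposite strand, Gm46878, covers 31.1% of the exon bases of Isg15. Usp18, which removes Isg15 and also restrains the type I interferon receptor, was at 8.53, 8.36 and 7.01 CPM and 16.99, 20.01 and 12.5 CPM (log2 fold change 1.05 ± 0.17). Herc6, the main ligase for Isg15 in mice, changed by 0.88 ± 0.10, with the smallest SE of the 3.

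Viperin, encoded by Rsad2, makes a nucleotide that stops viral RNA synthesis, and Cmpk2 is a mitochondrial nucleotide kinase encoded beside it. Rsad2 (chr12:26492745-26506451) and Cmpk2 (chr12:26519203-26529836) lie 12.8 kb apart. Both were called higher. Rsad2 had the largest change of all members and one of the lowest starting levels. Its counts were 10, 4 and 0 in the vehicle samples and 114, 74 and 41 in the S1P samples, which is 0.577, 0.293 and 0 CPM and 6.42, 6.49 and 3.22 CPM. The log2 fold change was 4.13 ± 0.51, and it ranged from 3.56 to 5.21 over the 13 alternatives that kept the gene. Cmpk2 was at 3.86, 3.81 and 2.25 CPM and 8.16, 9.13 and 5.81 CPM, a log2 fold change of 1.22 ± 0.23. Neighbours on the chromosome thus differed in the size of their change while both had groups that did not overlap.

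The ADP-ribosylation members changed by less than most other subfamilies, and 3 of the 4 were abundant. All 4 were called higher, with a median log2 fold change of 0.56 and per-sample medians of 0.50, 0.70 and 0.52 in the S1P samples. Dtx3l (chr16:35746881-35759521), a ubiquitin ligase that works in a complex with Parp9, had the highest level per length at 45.5 CPM per kb. It was at 212, 214 and 206 CPM in the vehicle samples and at 306, 326 and 299 CPM in the S1P samples (log2 fold change 0.56 ± 0.07). The spread within each group was far below the distance between them. Parp9 and Parp14, a macrodomain protein that transfers single ADP-ribose units, changed by 0.48 ± 0.07 and 0.55 ± 0.09. Parp9 and Dtx3l overlap by 682 bases on opposite strands, introns included. Exons on the opposite strand cover 9.12% of the exon bases of Parp9 and 8% of those of Dtx3l. The strand setting of the counting is not given in the sources used here. Parp12 (chr6:39063342-39095573), a mono-ADP-ribosyltransferase with zinc fingers, was the rare one of the 4 and the one with the largest change. It was at 2.13, 1.98 and 2.96 CPM and 4.33, 5.35 and 4.08 CPM (log2 fold change 0.95 ± 0.22).

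The IFI200 proteins carry a pyrin domain and a HIN domain that binds DNA, and their genes form a cluster on chromosome 1. All 3 members were called higher, with a median log2 fold change of 0.87. Ifi204 (chr1:173574859-173594610) changed most, from 1.61, 2.27 and 1.48 CPM to 5.91, 10.6 and 5.496 CPM (log2 fold change 2.03 ± 0.29). The highest sample was S1P replicate 2, and all S1P samples were above all vehicle samples. Ifi209 (chr1:173458380-173475494) was at 42.8, 36.2 and 35.9 CPM and 66.3, 84.1 and 61.0 CPM (log2 fold change 0.87 ± 0.12), with a level of 14.9 CPM per kb that was next to the 14.8 CPM per kb of Ifi203. Ifi203 changed by 0.78 ± 0.10. The genes of this family resemble one another, and 47.5%, 34.2% and 25% of the 31-base words in the exons of Ifi209, Ifi204 and Ifi203 occurred in other genes, so their counts may be split among copies.

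The IFI27 proteins sit in mitochondrial and nuclear membranes. Both members were called higher by nearly the same amount. Ifi27 (chr12:103392254-103407799) was at 11.4, 10.9 and 12.4 CPM and 20.4, 19.04 and 18.9 CPM (log2 fold change 0.75 ± 0.10). Ifi27l2a (chr12:103399975-103409950), at 22.4 CPM per kb the more abundant per length, was at 18.3, 18.3 and 19.03 CPM and 33.4, 28.3 and 28.8 CPM (log2 fold change 0.71 ± 0.09). Their genes overlap by 7825 bases on opposite strands, introns included. Exons on the opposite strand cover 4.48% of the exon bases of Ifi27 and 15% of those of Ifi27l2a. In contrast to most members, both were highest in S1P replicate 1.

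Of the 10 other effectors, 7 were called higher, and the median log2 fold change was 1.26. Ifi44 (chr3:151436559-151455625), a cytoplasmic antiviral protein, had the largest change of them and the second largest of all members. It was at 0.577, 0.513 and 0.322 CPM in the vehicle samples and at 5.46, 6.32 and 2.35 CPM in the S1P samples (log2 fold change 3.30 ± 0.42). The lowest S1P sample was above 4 times the highest vehicle sample, at levels where vehicle counts were few. Sp100 (chr1:85577709-85637719), a component of PML nuclear bodies that silence incoming viral DNA, had the highest level per length at 26.5 CPM per kb. Its values were 196, 186 and 196 CPM and 303, 378 and 286 CPM (log2 fold change 0.74 ± 0.10). Samd9l, an inhibitor of translation in infected cells, combined a high level with a large change, from 68.9, 69.8 and 54.6 CPM to 168, 219 and 156 CPM (log2 fold change 1.49 ± 0.13). Groups were far apart in both genes. Slfn5 of the Schlafen family, Xaf1, an antagonist of the caspase inhibitor XIAP, and Trim30a, a TRIM protein of the mouse, changed by 1.52 ± 0.18, 1.47 ± 0.17 and 1.10 ± 0.10. Of the 31-base words in the exons of Trim30a, 21.1% occurred in other genes. A gene on the opposite strand covers 19.8% of the exon bases of Slfn5. Rtp4, an RNA-binding protein of the receptor transporter family, changed by 1.41 ± 0.31, and another annotated gene on its strand, Gm45338, covers 26.6% of its exon bases.

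**Figure D2:**
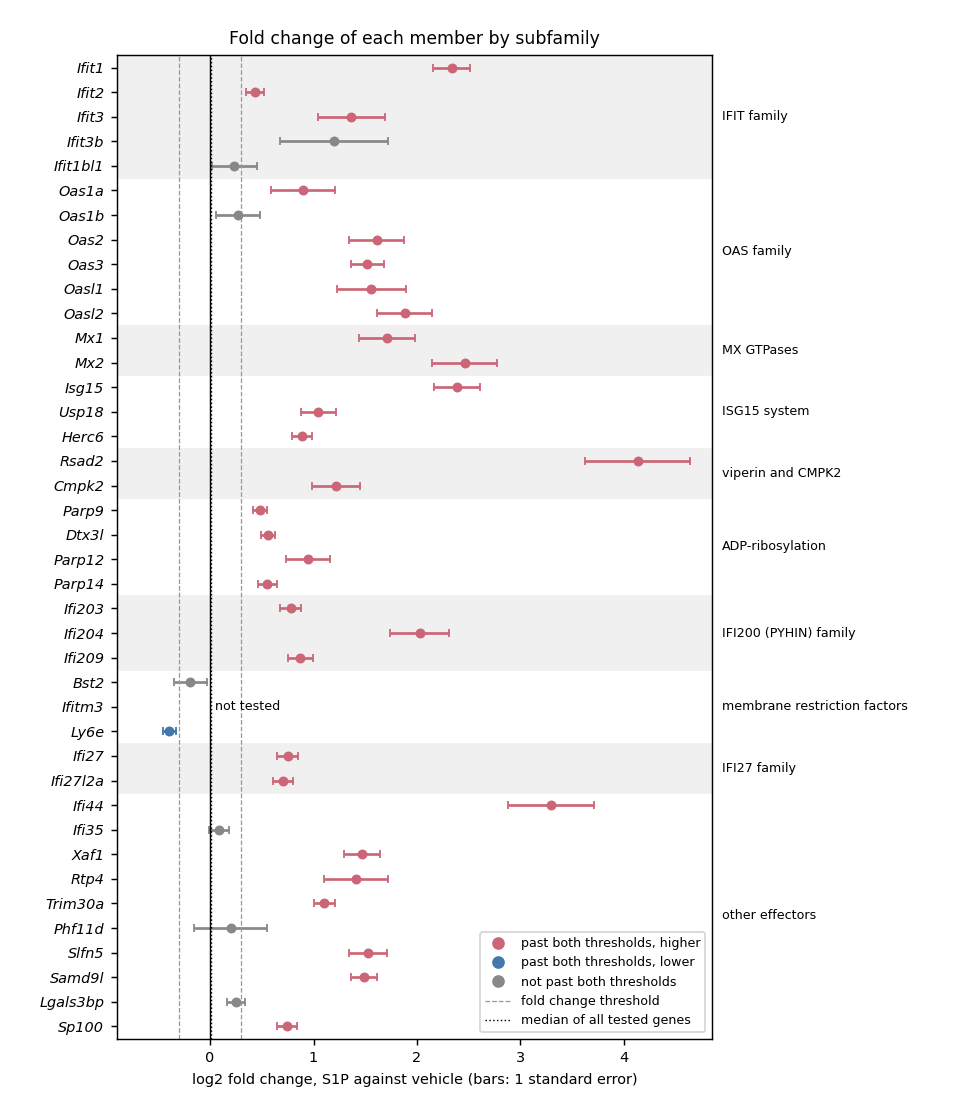
Log2 fold change of S1P against vehicle for each tested member, grouped by subfamily, with bars of 1 SE. Points in red were called higher, the blue point (Ly6e) was called lower and grey points were not called, dashed lines mark 0.3 and -0.3, and the dotted line marks the median of all tested genes.

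Not every member was called higher. The membrane restriction factors went the other way or stayed near their vehicle level. Ly6e (chr15:74826860-74847454), a lipid-anchored surface protein that hinders the entry of coronaviruses, was the most abundant member, at 63.1 CPM per kb. It was at 329.5, 320.1 and 328 CPM in the vehicle samples and at 248, 238 and 258 CPM in the S1P samples. Its log2 fold change was -0.39 ± 0.06, and it stayed between -0.43 and -0.36 in all 14 alternatives, every normalization included. All S1P samples were below all vehicle samples. Bst2 (chr8:71986895-71990114), or tetherin, which ties budding virions to the cell surface, was at 23.8, 23.5 and 22.3 CPM and 25.3, 14.04 and 20.8 CPM. S1P replicate 2 was far below the rest, and the other S1P samples lay beside the vehicle samples. Its log2 fold change was -0.19 ± 0.16, and was 0.00 without S1P replicate 2 and -0.41, called lower, without S1P replicate 1. Ifitm3, which hinders viral fusion in endosomes, was at 1.09, 0.587 and 0.257 CPM and 1.41, 0.527 and 0.393 CPM, and a gene on the opposite strand covers 60.9% of its exon bases.

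A further 3 of the uncalled members belonged to the other effectors. Ifi35, a partner of Nmi, had a log2 fold change of 0.09 ± 0.10 (0.0013 and 0.139 without vehicle replicate 2 and 3), with levels between 21.3 and 26.1 CPM in all 6 samples. Genes on the opposite strand cover 24.5% of its exon bases. Phf11d, a PHD finger protein, was at about 1 CPM and had a log2 fold change of 0.20 ± 0.36, which lay between -0.083 and 0.498 when 1 library was left out, at 0.013 and 0.32 without vehicle replicate 1 and 3, -0.083 without S1P replicate 3 and 0.498 without S1P replicate 1. Lgals3bp, a secreted glycoprotein that binds galectins, was at 58.7, 57.3 and 57.4 CPM and 65.3, 78.5 and 63.5 CPM. The groups did not overlap, but the log2 fold change of 0.25 ± 0.09 was below the threshold of 0.3. Without S1P replicate 3 it was 0.301 and the gene was called, and without S1P replicate 2 it was 0.158 and the gene was not called. Among called members, Ifit2 with 0.43 and Ly6e with -0.39 were the closest to it in size.

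The S1P samples differed in how far the members moved. As log2 CPM minus the mean of the vehicle samples, the median over the 39 tested members was 0.06, -0.05 and -0.04 in vehicle replicates 1 to 3, and 1.03, 1.22 and 0.78 in S1P replicates 1 to 3. S1P replicate 2 was the highest treated sample for 29 of the 39 members, and S1P replicate 3 the lowest for 28. Replicate 2 also stood apart over all genes with enough counts. The chi-square per gene was 31.3 between S1P replicates 1 and 2 and 18.4 between 2 and 3, against 5.98 between 1 and 3. Taken singly, S1P replicates 1 to 3 stood above every vehicle sample for 34, 36 and 34 of the 39 members. For whole groups, 45.6% of all tested genes did not overlap in either direction. Shares over all tested genes were not counted for single samples or for the order of replicates. Nothing is therefore read from these counts about the members. Summed over the tested members, the level was 1687, 1613 and 1621 CPM in the vehicle samples and 2441, 2745 and 2269 CPM in the S1P samples. That sum is dominated by abundant genes, since Ly6e, Dtx3l, Sp100, Parp14 and Trim30a made up 59.6% of it. S1P replicate 2 was also the sample with 7.80% of mitochondrial counts, and the part of that difference in these values was not tested. Without it, 30 of 40 tested members were called higher and the median log2 fold change was 0.82.

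The order of replicates 2, 1 and 3, from high to low, held in 6 of the 10 subfamilies. Medians in S1P replicates 1, 2 and 3 were 1.03, 1.92 and 0.37 for the IFIT family and 2.13, 2.54 and 1.38 for the MX GTPases. For the OAS family they were 1.67, 1.42 and 1.19, with S1P replicate 1 at the top, and for the IFI27 family 0.83, 0.66 and 0.67. The IFIT family thus had the widest spread between treated samples. Its vehicle samples lay between -0.32 and 0.11, below its lowest S1P sample.

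**Figure D3:**
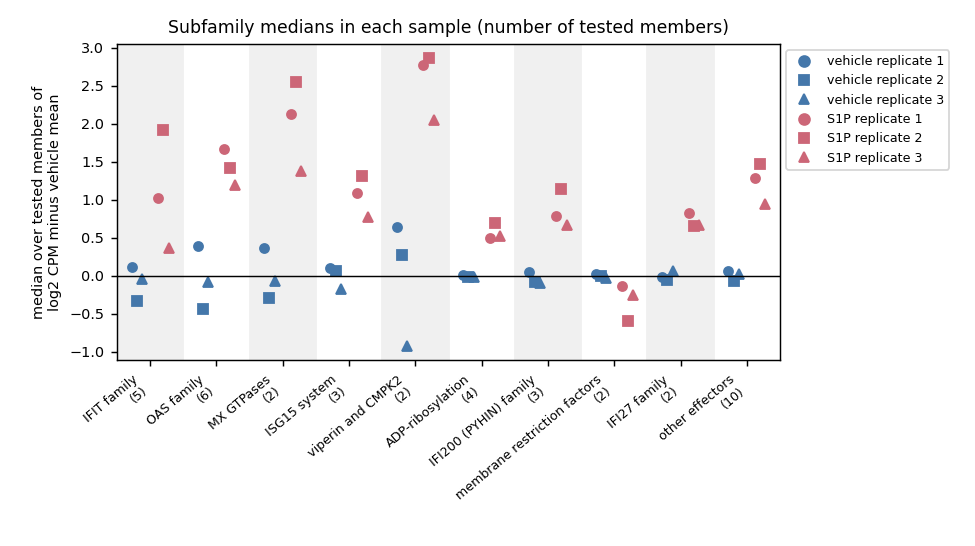
Median over the tested members of each subfamily of log2 CPM minus the vehicle mean, 1 point per sample, with vehicle samples in blue, S1P samples in red and the number of tested members in brackets. All S1P points lie above all vehicle points in 9 of the 10 subfamilies, and all lie below them for the membrane restriction factors.

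Fold changes were also set beside the starting level, as a description only, since the vehicle level is a term of the fold change and the filter on low counts kept rare members that were high with S1P. The filter asked for at least 0.689 CPM, before TMM scaling, in 3 samples. No vehicle sample of Rsad2 or Ifi44 reached it, so these 2 members were tested only through the S1P samples, and Oasl1 and Ifit3b reached it in 2 and 1 vehicle samples. Ifitm3, which was rare in both groups, was left out. With a vehicle mean under 5 CPM, 19 members had a median log2 fold change of 1.56 and a median SE of 0.29, and 15 of them were called. Between 5 and 50 CPM, 11 members had a median of 0.87 and a median SE of 0.12, with 9 called. Above 50 CPM, 9 members had a median of 0.56 and a median SE of 0.09, with 8 called. Samd9l and Trim30a were the exceptions among the abundant members, at 1.49 ± 0.13 and 1.10 ± 0.10. At the other end, Oas1b, Ifit1bl1 and Phf11d were rare and had log2 fold changes from 0.20 to 0.27.

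**Figure D4:**
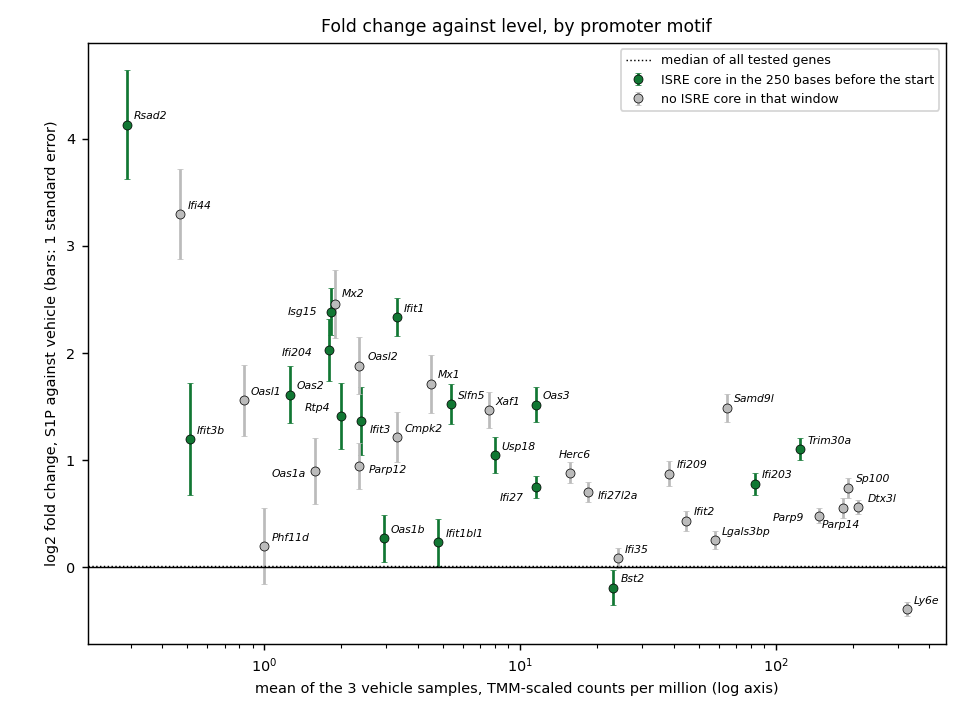
Log2 fold change (bars, 1 SE) of each tested member against its mean level in the 3 vehicle samples, as TMM-scaled CPM on a log axis, with members that held the ISRE core in green and the others in grey. Rsad2 and Ifi44, at the left with the largest fold changes, passed the filter on low counts only through the S1P samples. Members with and without the motif are mixed up to the 125 CPM of Trim30a, and no member at a higher level held it.

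Several members are neighbours in the genome (GRCm39). On chromosome 19, in order along the chromosome, the log2 fold changes were 0.43 for Ifit2, 1.37 for Ifit3, 0.24 for Ifit1bl1, 1.20 for Ifit3b and 2.33 for Ifit1, so that the 2 uncalled genes lay between called ones. On chromosome 5 the order was Oas2 with 1.61, Oas3 with 1.52, Oas1b with 0.27 and Oas1a with 0.90, and elsewhere on it Oasl2 with 1.88 and Oasl1 with 1.56, 11 kb apart. The Parp14, Dtx3l and Parp9 genes on chromosome 16 had similar values of 0.55, 0.56 and 0.48. Mx1 and Mx2, 72.4 kb apart on the same chromosome, had 1.71 and 2.46.

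Genes of the same families that are not members were counted from a list. For this list and those that follow, the shares over all tested genes were 12.7% called higher and 10.4% called lower. The lists are short and were chosen with earlier results known, so nothing is read from their counts of calls. Of 40 listed genes, 38 were found in the table and 26 were tested, of which 17 were called higher, with a median log2 fold change of 0.60. The gene with the largest fold change was Ifi207, another IFI200 gene that may share reads with its relatives, with counts of 8, 4 and 2 in the vehicle samples and 69, 80 and 28 in the S1P samples (log2 fold change 3.80 ± 0.52). No vehicle sample reached the level that the filter on low counts asks for, so that Ifi207 was tested only because it was high with S1P, and its change is a description. Further IFI200 genes, Ifi202b, Ifi206, Ifi208, Ifi211, Ifi213, Ifi214 and Mndal, were also called higher, from 0.68 to 1.81, whereas Aim2, the inflammasome sensor of the family, was not called at 0.28. Slfn2, which keeps T cells quiescent, had the highest level per length of the list and was below the fold change threshold, at -0.25 ± 0.07. The promoter window of 12 of the 26 held the ISRE core (46.2%).

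Of the interferon genes themselves, Ifng alone was above the floor of 3 counts. The other 19 of 20 had at most 3 counts in every sample, all Ifna genes and Ifnb1 included, and Ifnb1 had 0 counts in all 6. A count of 0 allows up to between 0.169 and 0.263 CPM in these libraries, counting error only. Ifng encodes interferon gamma, an effector cytokine of activated CD8+ T cells. Its counts were 3447, 2987 and 3293 in the vehicle samples and 2395, 1924 and 1820 in the S1P samples. It was called lower, at -0.50 ± 0.09 on the log2 scale (adjusted p = 0.00162, edgeR), and the groups did not overlap in CPM. Since this list too was chosen with earlier results of these data known, the p-value is a description. The direction of Ifng was thus opposite to that of most members.

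Among 9 receptor and kinase genes, 8 were tested and 2 were called higher, beside 12.7% of all tested genes. Jak2, a kinase of the interferon gamma receptor, was the most abundant per length and had the largest change that was called (0.81 ± 0.09). Ifngr2, a chain of the same receptor, changed by 0.45 ± 0.09. The type I receptor chains Ifnar1 and Ifnar2 were not called, at 0.07 ± 0.08 and -0.22 ± 0.09, and Il10rb, a chain of the type III receptor, had the largest value in size among those not called, -0.66 ± 0.27.

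Of 8 STAT and IRF genes, all tested, 3 were called higher, beside 12.7% of all tested genes. Stat2 and Irf9, which are parts of ISGF3, were among them. Irf7, which drives the later wave of type I interferon, had counts of 50, 31 and 47 in the vehicle samples and 323, 182 and 163 in the S1P samples (log2 fold change 2.52 ± 0.18, edgeR adjusted p = 1.1e-05). Stat2 changed by 0.92 ± 0.08 (adjusted p = 3.7e-05) and Irf9 by 0.56 ± 0.10 (adjusted p = 0.00156), both by the same edgeR test. The list of STAT and IRF genes was chosen with earlier results of these data known, so these p-values are a description. Irf1, a classical target of interferon gamma and the most abundant of them per length, was not called, at -0.06 ± 0.08.

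Feedback inhibitors, sensors and partners were mixed, to be read beside the 12.7% of all tested genes that were called higher. Of 4 inhibitors, Socs3 (0.84 ± 0.09) and the phosphatase gene Ptpn2 (0.43 ± 0.10) were called higher, and Socs1, which blocks the JAK kinases, was at 0.02 ± 0.15. Of 9 tested nucleic acid sensors, 3 were called higher. They were the RIG-I-like genes Dhx58 (1.73 ± 0.12) and Rigi (0.92 ± 0.14) and the Z-form nucleic acid sensor Zbp1 (0.66 ± 0.11). Sting1, the adaptor of the DNA sensor cGAS and the most abundant of the list per length, was not called, at -0.27 ± 0.08. Of 7 tested partners of members, 3 were called higher, led by Eif2ak2, the RNA-dependent kinase PKR, with 1.03 ± 0.14. Samhd1, a nucleotide hydrolase and the most abundant of the list per length, was among them at 0.33 ± 0.07. The conjugation enzymes of Isg15, Uba7 and Ube2l6, were not called, at 0.12 ± 0.11 and 0.02 ± 0.12.

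**Figure D5:**
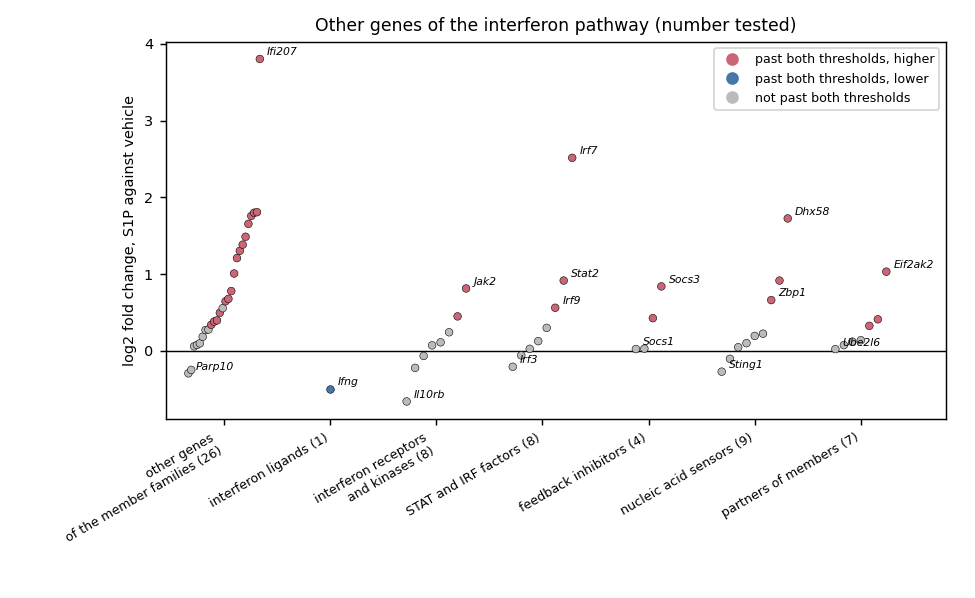
Log2 fold change of S1P against vehicle for the tested genes of 7 lists of the interferon pathway that hold no members, ordered by value within each list, with genes called higher in red, called lower in blue and not called in grey. Ifng is the only gene called lower, and Ifi207, Irf7 and Dhx58 have the largest rises of their lists.

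Markers of cells that make or answer to interferon were set beside these values. Over all tested genes, 12.7% were called higher and 10.4% lower, and nothing is read from the counts of calls in these short lists. Of 10 myeloid markers, Cd68 (0.10 ± 0.22) and Mpeg1 (0.17 ± 0.09) passed the filter and were not called, and Lyz2, Cd14, S100a8 and S100a9 had at most 3 counts in every sample. The list summed to between 80.1 and 104 CPM in the vehicle samples and between 98.8 and 112 CPM in the S1P samples, nearly all of it Mpeg1, which B cells also express. Of 7 markers of dendritic and plasmacytoid cells, 3 were tested and Tcf4, which B cells also express, was called higher (0.40 ± 0.10). The sums were 47.4 to 59.0 CPM and 61.7 to 73.3 CPM, nearly all of it Tcf4, at means of 48.2 and 63.9 CPM. Ccr9 was lower in every S1P sample than in any vehicle sample and was not called (-0.92 ± 0.32, edgeR adjusted p = 0.0537), Flt3 was not called at 0.92 ± 0.47, and Clec9a had 0 counts. Siglech, which marks plasmacytoid dendritic cells, had 1 to 5 counts per library. Of 4 NK cell markers, Ncr1 was tested and not called, and the sums were 1.79 to 2.05 CPM and 1.52 to 3.16 CPM. The 4 CD4 T cell markers summed to between 229 and 272 CPM without S1P and between 252 and 319 CPM with it. The 319 CPM was that of S1P replicate 2, beside 252 and 266 CPM in S1P replicates 1 and 3. Cd40lg and Zbtb7b were called higher, and Cd4 (0.10 ± 0.10) and Foxp3 (0.02 ± 0.18) were not called. Of the 8 B cell markers, Ebf1 was called higher and Ms4a1 and Cd22 lower. Of the 9 CD8 T cell markers, Cd2 was called higher, and Cd8a (-0.67 ± 0.08) and Cd8b1 (-0.55 ± 0.13) were called lower. The part of these shifts in the members' values was not tested.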

How the data were processed

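RNA-seq was performed on 6 samples of activated CD8+ T cells, 3 with S1P and 3 with vehicle. The authors deposited whole-number read counts per Ensembl gene, without normalization, which they made from strand-specific poly(A) libraries by trimming with Trim Galore, alignment with STAR and counting with featureCounts on GRCm39, per the labels and the submitters' processing notes. Which annotation release and which strand setting they used, and how they handled reads that fit more than one gene, is not given in the sources used here, and this could affect overlapping genes and near-identical copies.

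Of 56941 genes in the table, 56323 identifiers were found in GENCODE vM39, which gave symbols and positions. The filter on low counts was filterByExpr, library sizes were scaled by TMM, and the quasi-likelihood test of edgeR 4.0.16 (with limma 3.58.1 under R 4.3.3) compared the treatments with no covariate. Its p-values were adjusted by the method of Benjamini and Hochberg across all 13299 genes that entered, and calls needed 0.05 or less together with a change of 0.3 or more on the log2 scale. Log2 CPM used a prior count of 2, the floor was 3 counts, and the models were tested on simulated data before use. Replicate pairs of the same group differed by more than counting noise, with a chi-square per gene of 3.81 to 3.97 for vehicle and 5.98 to 31.3 for S1P, so no sample was a copy of another. Levels of different genes were compared per kb of merged exons. Promoter stretches were read from the GRCm39 genome.

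The members and all lists were chosen with earlier results of these data known. Values in every sample are given for the member of each subfamily with the largest change, for the one with the highest level per kb, and for called members that went against the median. Genes outside the members are the largest change and the highest level of each list plus Stat2, Irf9, Irf7 and Ifng, and any further ones were named after their values were seen. Some genes of these lists are not reported here. Alternatives were DESeq2 1.42.0, limma-voom, normalization by RLE, by the upper quartile or by the total count alone, looser and stricter filters and thresholds, a block for the replicate number, and 6 fits that each left out 1 library.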

Additional observations from a re-analysis of the deposited data

How the results depend on the processing

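With a log2 fold change of at least 1 as the threshold, 465 of all genes, 19 members higher and 0 members lower were called. Over the fits that left out 1 library each, all calls ranged from 2119 to 3228, members called higher from 30 to 32, members called lower from 1 to 2 (the 2 without S1P replicate 1, where Bst2 joined Ly6e), and the members' median from 0.82 (without S1P replicate 2) to 1.13. In these fits Bst2 lay between -0.41 and 0.0018 and the median of the membrane restriction factors between -0.40 and 0.0018, both above 0 without S1P replicate 2. That median is over 3 members in that fit and over 2 in the reported analysis, since Ifitm3 passed the filter there, and it equals the value of Bst2. Phf11d lay between -0.083, without S1P replicate 3, and 0.498. The cause of the turns of Bst2 and Phf11d was not tested. The other analyses gave 28 to 32 members higher, over different numbers of tested members. The 28 were of 35 tested, with at least 10 counts in every sample. The 32 were of 40 tested without a filter on low counts, and of 39 without a fold change threshold. Of 32 called members, 31 kept their call in each alternative that gave a value, Oas1a being the exception. With TMM factors 1687 genes were higher and 1384 lower, against 1838 and 1206 with upper-quartile factors and 1498 and 1511 with total count only. Without a filter on low counts the median of all genes was 0.16.

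The replicate number as a block gave 3120 calls, 31 members higher, 1 lower and a members' median of 1.03. Deviations of same-numbered samples had correlations of 0.12, -0.01 and 0.05, and 3 of 6 samples were closest to their own number. These values show little pairing by number, and the labels do not say whether same-numbered samples share more than that. For the rare members, under 5 CPM, the median SE was 0.29, and the part of depth in it was not tested.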
